A study of Homo sapiens with 12 samples.

Results

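The 10 genes described here encode the mitotic kinases and the spindle checkpoint, and they were AURKA, AURKB, PLK1, BUB1, BUB1B, MAD2L1, TTK, CDC20, BIRC5 and INCENP. They were chosen by symbol, with earlier results of these data known. All 10 were present among the 59276 gene symbols of the deposited expression table. RNA was sequenced from JJN3, a human multiple myeloma cell line, in 4 groups of 3 replicates. DMSO cells and MS023 cells are labelled wildtype, and their labels name no guide and do not say whether they carried Cas9. MS023 cells received the inhibitor of type I protein arginine methyltransferases at 10 µM for 3 days, with DMSO as the vehicle. The other two groups expressed Cas9 and were given doxycycline for 3 days to switch on a lentiviral guide. isgCtrl cells carried a control guide, and PRMT1-KO cells carried 1 guide against PRMT1, the enzyme that makes most asymmetric dimethylarginine. Cas9 cells were sorted by a reporter and guide-carrying cells were selected with puromycin, with no cloning step described. Since nothing in the labels says that replicates were separate cultures, p-values measure only the spread between these samples.

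In mitosis, Aurora A and PLK1 build the spindle poles and drive entry into division. Aurora B works at the centromere inside the chromosomal passenger complex and releases microtubules that are wrongly attached. TTK, BUB1, BUBR1 and MAD2 form the checkpoint that holds CDC20 back from the anaphase-promoting complex until each chromosome is attached. Transcripts of these genes peak in G2 and M phase in dividing cells, so bulk RNA averages cells that express them strongly with cells that hardly do. A smaller share of cells in G2 and M phase and less mRNA per such cell cannot be told apart in these values.

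Values are log2(TPM+1), where TPM counts transcripts per 1000000 transcripts, corrected for their length. TPM added up to 1000000 in every sample, so these values do not show read depth. The precision stated here comes from the spread between the 3 replicates of each group. Between replicates of a group, Pearson's r was 0.993 to 0.996 across all genes. PRMT1, the target, was at 859.8 ± 9.15 TPM in isgCtrl cells and 304 ± 4.34 TPM in PRMT1-KO cells (SD, n = 3 each). The mRNA was thus lowered but present, at a log2 fold change of -1.50 (limma adjusted p = 7.2e-04). This level does not measure the protein, for which the paper's western blot showed efficient loss after 3 days of doxycycline. Among 8 plasma cell markers, XBP1, IRF4, SDC1, TNFRSF17 and PRDM1 were above 10 TPM in every sample, whereas SLAMF7, MZB1 and CD38 averaged 9.32, 105 and 4.96 TPM in DMSO and 0.369, 2.01 and 1.33 TPM in isgCtrl. IRF4 went the other way, from 95.1 to 157 TPM, and was called higher in isgCtrl as those 3 were called lower. The summed plasma cell markers were at 716 to 755 TPM in DMSO and 1153 to 1197 TPM with MS023, where XBP1, SLAMF7, MZB1 and PRDM1 were called higher and CD38 lower. The 10 markers of other blood cells together made up 2.78 to 10.4 TPM in any sample, and 7 of them were under 1 TPM throughout. The part of these marker differences in the results was not tested.

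MS023 lowered all 10 genes, to between 28.9% and 49.0% of their mean TPM in DMSO. The deepest fall was that of AURKA, followed by CDC20 and TTK, and the shallowest was that of INCENP. The 10 transcripts summed to 829 ± 4.28 TPM in DMSO, and under MS023 to 317 ± 20.8 TPM (SD, n = 3 each). Each gene passed the threshold in limma, a linear model fitted across 12903 genes, of a Benjamini-Hochberg adjusted p under 0.05 with an absolute log2 fold change above 0.48. Of all genes tested, 19.3% were called lower by this rule and 11.6% were called higher. The median log2 fold change was -1.31 over the 10 genes and -0.11 over all genes tested. With samples scaled to bring the median gene to 0, a shift of 0.11, it was -1.19. No MS023 sample overlapped a DMSO sample for any of the 10, and 36.3% of all genes tested were likewise lower in every MS023 sample.

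**Figure D1:**
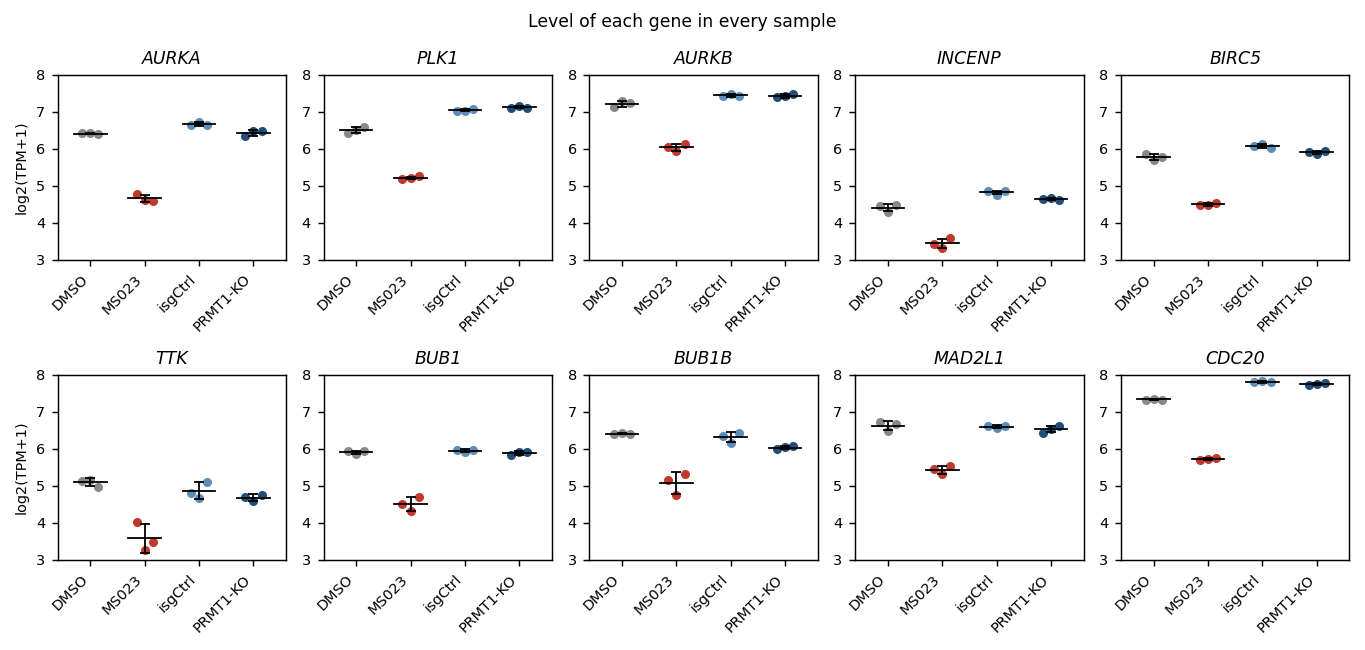
Level of each gene as log2(TPM+1) on the vertical axis in the 4 groups on the horizontal axis. Points are single samples, long bars are means and capped bars are the SD of 3 replicates. The MS023 samples lie lowest in all 10 panels, between 3.27 for TTK and 6.12 for AURKB, and the isgCtrl and PRMT1-KO samples lie close together.

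AURKA encodes Aurora A. In GRCh38 the gene spans 56369389 to 56392337 of chromosome 20, minus strand. Its level was 6.42, 6.41 and 6.38 log2(TPM+1) in DMSO and 4.77, 4.61 and 4.58 with MS023. DMSO samples were nearly equal and every MS023 sample was far below them. The log2 fold change was -1.75 with a 95% interval of -1.93 to -1.57 (adjusted p = 6.16e-05 in limma, by Benjamini-Hochberg), and only 0.558% of all genes tested fell further.

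PLK1 encodes polo-like kinase 1, which acts at centrosomes, kinetochores and the cleavage site, and lies on chromosome 16 from 23677656 to 23690367 on the plus strand. Its level was 6.43, 6.50 and 6.57 log2(TPM+1) in DMSO against 5.18, 5.20 and 5.25 with MS023, an even shift with a log2 fold change of -1.29 (95% interval -1.45 to -1.13; limma adjusted p = 8.95e-05).

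The chromosomal passenger complex holds Aurora B, its scaffold and activator INCENP, and survivin, the product of BIRC5, which brings the complex to the centromere. AURKB, on chromosome 17 from 8204733 to 8210600 on the minus strand, was at 7.13, 7.28 and 7.22 log2(TPM+1) in DMSO and 6.04, 5.94 and 6.12 with MS023. With MS023 it was the most abundant of the 10 by TPM, at 64.6 ± 4.09 TPM (SD, n = 3) from 147 ± 7.83 TPM, with a log2 fold change of -1.18 (95% interval -1.37 to -0.99; limma adjusted p = 1.80e-04). BIRC5 lies on the same chromosome from 78214186 to 78225636 on the plus strand. It was at 5.85, 5.70 and 5.77 log2(TPM+1) in DMSO and 4.48, 4.46 and 4.54 with MS023, a log2 fold change of -1.28 (95% interval -1.44 to -1.11; limma adjusted p = 9.36e-05).

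INCENP, on chromosome 11 from 62123998 to 62153169 on the plus strand, was the least abundant of the 10 in every group. It was at 4.43, 4.30 and 4.47 log2(TPM+1) in DMSO and at 3.42, 3.32 and 3.57 with MS023. This was the smallest fall of the 10, a log2 fold change of -0.96 with a 95% interval of -1.19 to -0.74 (limma adjusted p = 5.64e-04), and the one that missed the stricter threshold of an absolute log2 fold change above 1.

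TTK encodes MPS1, the kinase at the top of the checkpoint, and lies on chromosome 6 from 80003887 to 80042527 on the plus strand. It was at 5.14, 5.17 and 4.98 log2(TPM+1) in DMSO and 4.01, 3.27 and 3.47 with MS023. MS023 replicates differed more for TTK than for any other of the 10, with an SD of 0.39 against 0.11 in DMSO. The log2 fold change of -1.51 therefore had the widest interval, -1.99 to -1.04 (limma adjusted p = 0.00164).

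BUB1 encodes a kinase that docks on the kinetochore and recruits other checkpoint proteins, and BUB1B encodes BUBR1, part of the complex that inhibits CDC20. BUB1, on chromosome 2 from 110637528 to 110678063 on the minus strand, was at 5.93, 5.86 and 5.93 log2(TPM+1) in DMSO and 4.51, 4.31 and 4.69 with MS023. BUB1B, on chromosome 15 from 40161023 to 40221123 on the plus strand, was at 6.39, 6.43 and 6.41 in DMSO and 5.15, 4.74 and 5.33 with MS023. Their log2 fold changes were close, at -1.40 (95% interval -1.67 to -1.14) and -1.34 (95% interval -1.70 to -0.97), with limma adjusted p of 2.72e-04 and 0.00101. For both genes MS023 replicate 2 was the lowest sample of all 12. Over the 10 genes that sample was the lowest of its group for 7, and without it the number of genes called lower was still 10.

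MAD2L1 encodes MAD2, which binds CDC20 when kinetochores are unattached, and lies on chromosome 4 from 120055623 to 120066858 on the minus strand. Its level was 6.72, 6.49 and 6.67 log2(TPM+1) in DMSO and 5.45, 5.31 and 5.52 with MS023, a log2 fold change of -1.19 (95% interval -1.42 to -0.97; limma adjusted p = 2.96e-04). CDC20, the activator of the anaphase-promoting complex that the checkpoint restrains, lies on chromosome 1 from 43358981 to 43363203 on the plus strand. It was the most abundant of the 10 in DMSO, at 7.33, 7.36 and 7.32 log2(TPM+1), and dropped to 5.71, 5.72 and 5.75 with MS023. Replicates hardly differed in either group, so the log2 fold change of -1.61 had the narrowest interval, -1.75 to -1.47 (limma adjusted p = 5.52e-05).

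The smallest p that a two-sided exact permutation test of 3 v 3 samples can give is 0.1, and each of the 10 genes had this p with MS023. Rows for copies of these genes held almost no signal: AURKAP1 reached 0.573 TPM, CDC20P1 reached 0.0507 TPM, and AURKAP2, BUB1P1 and the read-through BUB1B-PAK6 were listed at 0 in every sample. PAK6, whose annotated span overlaps that of BUB1B on the same strand, reached 2.83 TPM.

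Many genes of G2 and M phase carry the cell cycle genes homology region, TTTGAA or TTCGAA, near the start of transcription, often with CCAAT boxes upstream. It is bound by the DREAM complex in resting cells and by B-MYB and FOXM1 complexes in dividing cells. RefSeq promoters of GRCh38.p14, from 250 bases before to 50 bases after the start, were at hand for 7 of the 10 genes, AURKB, PLK1, BUB1, BUB1B, MAD2L1, CDC20 and INCENP. On either strand, TTTGAA was found in 5 of the 7, and in 15.2% of 35093 promoters of all genes. The related TTCGAA, which reads the same on both strands, was found in BUB1 at position 2, and in 1.45% of all promoters. CCAAT was found on either strand in 6 of the 7 and in 34.6% of all promoters. AURKB had neither TTTGAA nor TTCGAA in either of its listed promoters, and fell with MS023 like the rest. A match describes letters in a window and not a bound site. RefSeq and GENCODE can place the start of a gene differently, as they do for PLK1. The promoters of PLK1, BUB1B, CDC20 and INCENP are shown because their TTTGAA lies within the 100 bases before the start, where TTTGAA and CCAAT, or ATTGG on the other strand, are in capitals:
PLK1, chr16:23678789-23678888, plus strand: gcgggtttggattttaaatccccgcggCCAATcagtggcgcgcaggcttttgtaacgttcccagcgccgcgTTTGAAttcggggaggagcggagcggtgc
BUB1B, chr15:40160969-40161068, plus strand: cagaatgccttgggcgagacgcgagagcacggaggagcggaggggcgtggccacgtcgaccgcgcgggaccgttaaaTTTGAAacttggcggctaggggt
CDC20, chr1:43358881-43358980, plus strand: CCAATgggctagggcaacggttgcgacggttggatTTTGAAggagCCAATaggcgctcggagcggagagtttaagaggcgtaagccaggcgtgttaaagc
INCENP, chr11:62123911-62124010, plus strand: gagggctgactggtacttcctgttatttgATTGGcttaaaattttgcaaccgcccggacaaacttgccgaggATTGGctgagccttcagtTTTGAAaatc

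TTTGAA began 29 bases before the start in PLK1, 23 in BUB1B, 65 in CDC20 and 10 in INCENP. In MAD2L1 it began at position 25 after the start. PLK1, CDC20 and INCENP had TTTGAA together with CCAAT, as did MAD2L1, while 5.90% of all promoters had both. The steepest fall among these 4 was that of CDC20 and the shallowest was that of INCENP. CDC20 had TTTGAA at 2 positions of its promoter, and INCENP, PLK1 and MAD2L1 had it at 1 each. CCAAT, on either strand, was at -107, -71 and -28 in INCENP and at -100 and -55 in CDC20. A relation between these matches and the size of the fall was not tested.

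In PRMT1-KO cells none of the 10 genes was called, where 0.781% of 12285 genes tested were called in either direction. In limma 4 of the 10 had an unadjusted p under 0.05, all lower in PRMT1-KO, against 12.4% of all genes tested that were lower at this level. For 9 of the 10 the log2 fold change was below 0, with a median of -0.12 over the 10 genes and -0.04 over all genes tested. AURKA, BUB1B, CDC20, BIRC5 and INCENP, 5 of the 10, were lower in all PRMT1-KO samples than in any isgCtrl sample, and 1 gene, PLK1, was higher in all of them. Among all genes tested, 17.6% were lower and 9.11% were higher without overlap. The summed level of the 10 was 984 ± 8.07 TPM in isgCtrl and 930 ± 25.1 TPM in PRMT1-KO (SD, n = 3 each).

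BUB1B and AURKA had the largest differences. BUB1B was at 6.35, 6.17 and 6.43 log2(TPM+1) in isgCtrl and 5.98, 6.04 and 6.07 in PRMT1-KO, a log2 fold change of -0.28 with a 95% interval of -0.48 to -0.09 (limma adjusted p = 0.163 by Benjamini-Hochberg). AURKA was at 6.63, 6.72 and 6.64 in isgCtrl and 6.34, 6.47 and 6.47 in PRMT1-KO, a log2 fold change of -0.24 with a 95% interval of -0.39 to -0.09 (limma adjusted p = 0.136). With a variance prior that follows expression, the adjusted p of AURKA was 0.0448 in limma, at a fold under the threshold.

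INCENP and BIRC5 differed by -0.18 (95% interval -0.31 to -0.06) and -0.17 (95% interval -0.31 to -0.04), with limma adjusted p of 0.156 and 0.197. PLK1 stood at 7.03, 7.01 and 7.07 log2(TPM+1) in isgCtrl and 7.11, 7.16 and 7.10 in PRMT1-KO. Its log2 fold change was 0.09 (95% interval -0.03 to 0.20; limma adjusted p = 0.389). AURKB, BUB1, MAD2L1 and CDC20 had log2 fold changes from -0.07 to -0.01, and their intervals all included 0. TTK had the widest interval here too, -0.49 to 0.11 around a log2 fold change of -0.19 (limma adjusted p = 0.458). It was -0.06 without isgCtrl replicate 3 and -0.28 without isgCtrl replicate 2. No interval of the 10 reached below -0.49, whereas the smallest fall with MS023 was -0.96.

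**Figure D2:**
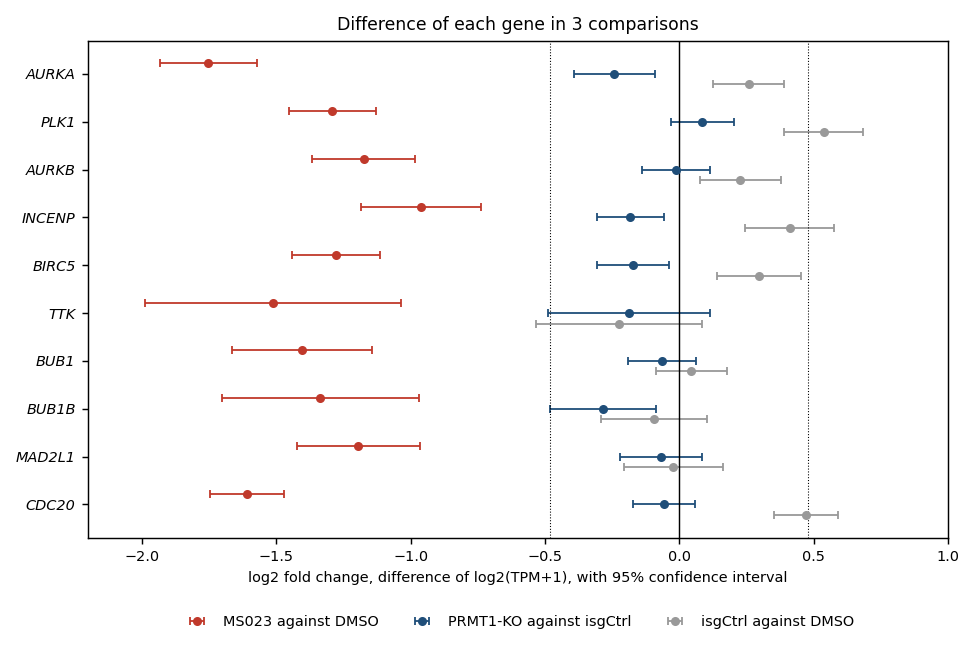
Log2 fold change of each gene on the horizontal axis, as a difference of log2(TPM+1), in 3 comparisons shown by colour. Bars are 95% confidence intervals from limma and dotted lines mark the fold change threshold of 0.48. With MS023 all 10 intervals end at -0.74 or lower, while in PRMT1-KO the points of 9 genes lie between -0.28 and -0.01.

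The difference between both effects was tested in 1 limma fit of all 12 samples over 13256 genes. For all 10 genes the log2 fold change was lower with MS023 than in PRMT1-KO, at an adjusted p under 0.05 in limma. The same held for 21.2% of all genes tested. The log2 difference of the effects ran from -1.55 for CDC20 to -0.78 for INCENP and had a median of -1.24. TTK had the largest adjusted p, 0.00233 (limma, adjusted by Benjamini-Hochberg). Over all genes tested the median was -0.07.

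The control groups, isgCtrl and DMSO, were themselves not at one level. Guide vector, doxycycline and vehicle differ between them, and Cas9 may, and their parts cannot be told apart. These samples also serve as controls in the comparisons above, so the values are not independent of those. PLK1 was 0.54 higher in isgCtrl on the log2 scale (95% interval 0.39 to 0.68; limma adjusted p = 0.00241) and was the 1 gene of the 10 called, where 7.23% of 12661 genes tested were called higher. CDC20 was 0.47 higher (95% interval 0.35 to 0.59; limma adjusted p = 0.00195), just under the fold change threshold. Without DMSO replicate 2 or without isgCtrl replicate 3 its log2 fold change came to just above 0.48 and it was called too. INCENP, BIRC5, AURKA and AURKB were 0.41, 0.30, 0.26 and 0.23 higher, with limma adjusted p of 0.00775, 0.0173, 0.0152 and 0.0348 at folds under the threshold. In all, 6 of the 10 had an adjusted p under 0.05 at any fold, where 21.5% of all genes tested were higher at this level, and all 6 were higher in every isgCtrl sample than in every DMSO sample, as were 31.8% of all genes tested. AURKB did not reach a limma adjusted p of 0.05 under median-ratio scaling (0.0957) or quantile normalization (0.0527), nor did BIRC5 under the latter (0.0518). AURKA, AURKB and BIRC5 also missed it with 1 replicate left out. Their highest limma adjusted p were 0.0503, 0.101 and 0.0573, each without isgCtrl replicate 2. Of these fits, AURKB passed only in the one without DMSO replicate 2 (limma adjusted p 0.0417). For BUB1, BUB1B, MAD2L1 and TTK log2 fold changes were between -0.23 and 0.04 and the samples overlapped. Plasma cell markers differed between the same samples, as given above.

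Levels therefore fell into several orders. MS023 cells were lowest for all 10 genes and did not overlap the next group. The share of all genes lowest with MS023 among the 4 groups was not computed. Against DMSO alone, 36.3% of all genes tested were lower in every MS023 sample. For AURKA, AURKB, CDC20, BIRC5 and INCENP the order above MS023 was DMSO, PRMT1-KO and isgCtrl. DMSO and PRMT1-KO overlapped for AURKA, and PRMT1-KO and isgCtrl overlapped for AURKB. PLK1 ran DMSO, isgCtrl, PRMT1-KO with no overlap between neighbours. BUB1B, MAD2L1 and TTK ran PRMT1-KO, isgCtrl, DMSO, and DMSO and isgCtrl samples overlapped for all 3. BUB1 ran PRMT1-KO, DMSO, isgCtrl, with neighbours overlapping. By TPM, which is per length, CDC20 was the most abundant in DMSO, isgCtrl and PRMT1-KO and came second to AURKB with MS023. TTK and INCENP were the lowest in every group.

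Pairs of genes were compared as the ratio of their TPM within a sample, partners of one complex or pathway and also the Aurora kinases, which work in different places. No scaling of a sample can change such a ratio. In both comparisons 8 pairs were tested with a two-sided exact permutation test, 16 tests in all. Of these, 2 with MS023 and 6 in PRMT1-KO had the smallest p of 0.1 (exact test; adjusted p = 0.2 by Benjamini-Hochberg over the 16), so none could pass 0.05. These were the pairs whose groups did not overlap, and over all pairs of genes tested and above 0 in each sample 57.1% did not overlap with MS023 and 23.2% in PRMT1-KO. The 8 pairs are not independent, since AURKB, AURKA, BUB1B and CDC20 each enter more than 1.

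The ratio of the Aurora kinases stood apart from its control in both comparisons. AURKB was present at 1.64, 1.83 and 1.80 times the TPM of AURKA in DMSO, and at 2.46, 2.58 and 3.01 times with MS023. As a log2 ratio this was 0.81 ± 0.09 in DMSO, against 1.42 ± 0.15 under MS023 (SD, n = 3 each), a difference of 0.61. In isgCtrl the ratio was 1.73, 1.69 and 1.72, and in PRMT1-KO it was 2.08, 1.94 and 2.03, a difference of 0.23 in log2 ratio. AURKB was thus higher relative to AURKA in every treated sample than in every control sample of both comparisons. Of all gene pairs, 57.1% with MS023 and 23.2% in PRMT1-KO did not overlap, in either direction. The share of all gene pairs apart in the same direction in both comparisons was not computed, so nothing particular to this pair can be read from it. In both comparisons this ratio had the smallest exact p of 0.1 (adjusted p = 0.2).

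TPX2, the activator of Aurora A, was at 0.880, 0.841 and 0.940 times the TPM of AURKA in DMSO and 0.923, 1.02 and 1.20 times with MS023, and these samples overlapped (exact p = 0.2, adjusted p = 0.32). In isgCtrl it was at 0.889, 0.807 and 0.910 times and in PRMT1-KO at 1.03, 0.950 and 1.01 times, without overlap (exact p = 0.1, adjusted p = 0.2). In both comparisons AURKA was the partner with the lower log2 fold change.

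Within the passenger complex the ratios with MS023 overlapped those in DMSO. CDCA8, which encodes the fourth subunit borealin, was at 0.300, 0.271 and 0.299 times AURKB in DMSO and 0.297, 0.307 and 0.273 times with MS023. The difference in log2 ratio was 0.01 (exact p = 0.8, adjusted p = 0.8). BIRC5 to AURKB was 0.365 in DMSO and 0.334 with MS023, and INCENP to AURKB was 0.137 and 0.153, as geometric means, with overlapping samples in both. In PRMT1-KO the 2 latter ratios were lower in every sample than in isgCtrl, by -0.16 and -0.18 in log2 ratio, while CDCA8 to AURKB overlapped.

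Among the parts of the checkpoint complex, MAD2L1 was at 0.652, 0.545 and 0.636 times CDC20 in DMSO and 0.836, 0.750 and 0.850 times with MS023, a difference of 0.41 in log2 ratio without overlap. In PRMT1-KO this ratio differed from isgCtrl by -0.01, and the samples overlapped (exact p = 0.8, adjusted p = 0.8). BUB1B to CDC20 was 0.520, 0.522 and 0.531 in DMSO and 0.673, 0.50 and 0.741 with MS023, so here the treated samples lay on both sides. In PRMT1-KO it was 0.298, 0.301 and 0.303, below all isgCtrl samples at 0.363, 0.312 and 0.387. BUB1 to BUB1B was 0.769, 0.834 and 0.726 in isgCtrl and 0.900, 0.917 and 0.896 in PRMT1-KO, and with MS023 it overlapped DMSO.

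A further 7 lists of genes around these kinases and the checkpoint were described in the same fits. These lists were chosen with earlier results of these data known, so their counts describe them and are no independent test. The share beside each list count with MS023 is 19.3% of all genes tested called lower and 11.6% called higher. Of 10 passenger and kinase cofactors, 9 were called lower with MS023 and 0 higher, at a median log2 fold change of -1.18, with PRC1, which bundles spindle microtubules, at -1.53, TPX2 at -1.52, the cohesin protector SGO2 at -1.40 and BORA, which helps Aurora A to activate PLK1, at -1.37. CEP192 was the exception, named after its value of -0.46 was seen. Of 12 checkpoint partners, 10 were called lower and 0 higher, at a median of -1.19. The kinetochore subunits NDC80 and NUF2 were at -1.64 and -1.51. TRIP13, which takes MAD2 out of its active form, was at -1.42, and KNTC1, part of the complex that brings MAD1 and MAD2 to kinetochores, was at -1.36. MAD1L1 (-0.47) and MAD2L1BP (-0.05) were not called and were named after their values were seen.

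Of 16 other kinases and phosphatases of mitotic entry and exit, 11 were called lower and 0 higher, at a median of -0.96. NEK2, a centrosome kinase, had the largest log2 fold change of the list at -1.95, from 48.5 to 11.8 mean TPM. PLK4, which starts centriole duplication, was at -1.63, CDK1, the central kinase of mitosis, at -1.46, and VRK1 at -1.37.

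For the anaphase-promoting complex itself, 6 of 18 subunits and direct regulators were called lower, where 19.3% of all genes tested were. In this list 0 were called higher and 12 were not called, and its median was -0.42. The largest falls were of UBE2C (-1.48), the ubiquitin-conjugating enzyme of the complex, and FBXO5 (-1.37), its inhibitor, neither of them a subunit, and then of the subunits ANAPC1 (-0.75) and ANAPC10 (-0.66). Of 12 proteins that the complex marks for destruction, 11 were called lower, at a median of -1.25. CDCA3 was at -1.83, the cyclins CCNB2 and CCNB1 at -1.70 and -1.63, and ANLN, an actin binder of the cleavage furrow, at -1.51.

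Of the phosphatases that oppose these kinases, 4 of 17 tested were called lower and 2 called higher at a median of -0.18, shares near the 19.3% and 11.6% of all genes tested. PPP2R1B (-0.68) and ENSA (-0.55), an inhibitor of protein phosphatase 2A, fell, and PPP2CB (0.62) and PPP2R5B (0.56) rose. With median-ratio scaling this split was 1 lower and 3 higher, and ENSA was not called. Paralogues of the 10 genes with other main roles had a median of 0.07, with 0 of 8 tested called lower and XIAP (0.63), an inhibitor of apoptosis related to survivin, called higher, where 11.6% of all genes tested were. For these 7 lists the limma adjusted p of each gene named as called was at most 0.00829, by Benjamini-Hochberg over all genes tested. In PRMT1-KO limma called 0 genes of the 7 lists, where 0.781% of all genes tested were called, so a count of 0 is near that background. List medians lay between -0.12 and 0.03. ANAPC1 was at -0.46 there, with a limma adjusted p of 0.0482 at a fold under the threshold.

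Outside the 10 genes, the profile most like theirs was looked for among 12267 genes, as the mean absolute difference over 12 samples between a gene and the median of the 10, each centred on its DMSO mean. RAVER2 (0.0626), SLC2A4RG (0.0754), WDR62 (0.0769), COLCA2 (0.0824) and WDR34 (0.0833) came first. BIRC5 was the closest of the 10 to their own median, at 0.0535, and TTK was the farthest, at 0.337.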

How the data were processed

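Total RNA of 12 JJN3 samples was sequenced. The authors trimmed reads with Trimmomatic, aligned them to hg38 with GENCODE V35 using STAR, quantified them with Salmon and deposited gene-level log2(TPM+1). Tool versions are not given in the sources used here. These log2 values were used as deposited, all 12 columns matched a sample title, and TPM was recovered by undoing the logarithm. Nothing upstream was repeated.

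Groups came from the labels. The 10 genes and all lists were chosen with earlier results of these data known. Genes whose mean log2(TPM+1) exceeded 1 in any group of a comparison were fitted in limma 3.58.1 (R 4.3.3, eBayes without trend), each comparison on its own 6 samples, and p were adjusted by Benjamini-Hochberg over all genes tested. Calls needed an adjusted p under 0.05 and, following the study's methods, a log2 fold change beyond 0.48 in either direction. By this rule 3986 genes were called with MS023, far more than the paper reports, and 96 in PRMT1-KO, close to the paper's count. The cause of this gap was not tested. MS023 minus PRMT1-KO used all 12 samples and the adjusted p alone. Fold changes are on the log2(TPM+1) scale, which understates changes of low genes. Ratios used log2 of TPM.

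Named are the 10 genes, partners in ratio pairs, PRMT1, up to 4 called genes per list with the largest change with MS023, list genes called in PRMT1-KO, and the 5 closest profiles. Fits were tested on simulated data. Positions are from GENCODE v44 on GRCh38 and promoters from RefSeq. Alternatives were other filters, a pseudocount of 0.1, median-ratio and quantile scaling, a variance trend, a replicate block, all samples in 1 fit, other fold thresholds and each replicate left out.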

Additional observations from a re-analysis of the deposited data

Results flagged for a closer look

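For all 10 genes the log2 fold change was lower with MS023 than in PRMT1-KO, in a test of the difference itself. The adjusted p was at most 0.00233 (limma over 12 samples, Benjamini-Hochberg). At an adjusted p under 0.05, the log2 fold change of 21.2% of all genes tested was lower with MS023. Each of the 10 was lower in 3 of 3 MS023 samples than in every DMSO sample, as were 36.3% of all genes tested. On the log2 scale the difference of the effects was -1.55 for CDC20, -1.51 for AURKA, -1.38 for PLK1, -1.34 for BUB1, -1.33 for TTK, -1.16 for AURKB, -1.13 for MAD2L1, -1.11 for BIRC5, -1.05 for BUB1B and -0.78 for INCENP. Both treatments were given to cells with different control levels, and for PLK1 and CDC20 the controls differed by 0.54 and 0.47.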

How the results depend on the processing

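With MS023, 9 or 10 of the 10 genes were called in 16 alternatives, 9 of them at an absolute log2 fold change above 1. In PRMT1-KO the count was 0 in each alternative. Over all genes, 0 were called there with the replicate block and 2 to 21 without 1 replicate. Those fits could therefore hardly call any of the 10. Against DMSO, isgCtrl had 6 genes called with no fold change threshold, 0 at an absolute log2 fold change above 1, and 1 to 2 when a replicate was left out. Signs turned only for small values. AURKB in PRMT1-KO was at 0.029 under median-ratio scaling, 0.015 under quantile normalization and -0.039 to 0.0087 without 1 replicate. BUB1 in isgCtrl was at -0.0055 and -0.030 under these scalings, and MAD2L1 there was at -0.091 to 0.023 without 1 replicate. With 1 replicate left out, the log2 ratio of MAD2L1 to CDC20 in PRMT1-KO ran from -0.042 to 0.015, and that of CDCA8 to AURKB with MS023 from -0.035 to 0.062. The cause was not tested.

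Median-ratio scaling moved the median of all genes with MS023 by 0.11, and the median of the 10 genes was then -1.19. The calls over all genes were 1500 higher and 2486 lower with MS023, 2012 and 1882 under this scaling, and 1923 and 1918 under quantile normalization. For PRMT1-KO they were 51 and 45, then 67 and 31, and 61 and 28. For isgCtrl against DMSO they were 915 and 848, and 669 and 939 under median-ratio scaling. With no fold change threshold 6300, 157 and 4373 genes were called in these comparisons, and at an absolute log2 fold change above 1, 1083, 9 and 369. With no filter on low values PRMT1-KO had 48 calls. The list counts were recomputed under both scalings, a choice made after seeing the data, and the 5 lists with the most calls with MS023 had medians of -0.30 or lower there. Of the other kinases and phosphatases of entry and exit, CDC25B was then called higher.

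Deviations of same-numbered samples from their group means correlated at 0.079 on average for MS023 and DMSO (0.030 to 0.122). For differently numbered samples the average there was -0.040 (-0.119 to 0.043). For PRMT1-KO and isgCtrl the averages were -0.050 and 0.025. So few pairs cannot decide whether same-numbered samples share a batch. With the replicate block, AURKA, AURKB and BIRC5 in isgCtrl had adjusted p of 0.0527, 0.0669 and 0.0603, 10 genes were called with MS023, 0 in PRMT1-KO and 1 in isgCtrl, while the calls over all genes in PRMT1-KO went from 96 to 0. In the ratio pairs, blocking by replicate number allows no p below 0.25 in an exact test. Without 1 replicate, the calls over all genes in PRMT1-KO were 2 to 21.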
